A study of Mus musculus with 35 samples.

Results

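Insulin and insulin-like growth factor (IGF) signalling was followed in interscapular brown adipose tissue (iBAT) of mice through 10 genes, taken by symbol from a table of 55421 genes. They encode the ligand IGF1 (Igf1), the receptors for insulin and IGF1 (Insr and Igf1r), the adaptors that dock on those receptors (Irs1 and Irs2), the IGF binding proteins Igfbp3, Igfbp4 and Igfbp5, the kinase Akt2 and the transcription factor Foxo1. Bulk RNA from 35 male C57BL/6J mice, 9 to 10 weeks old, was sequenced with a 3' end method, with 5 mice kept at room temperature (RT) and 5 mice for each of 6 cold exposures at 6 °C, of 6 hours or 1, 2, 3, 4 or 5 days. Cold-exposed mice were housed singly without nesting material, whereas controls stayed in the colony at 24 °C, so the effects of housing and temperature cannot be told apart. No mouse carried an engineered allele or received an agent. Each mouse gave 1 library, so replicates are separate animals.

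Insulin binds INSR and IGF1 binds IGF1R, and both receptors phosphorylate IRS proteins, which recruit PI3-kinase. The lipid signal it makes activates AKT, which promotes glucose uptake, lipid synthesis and growth and keeps FOXO proteins out of the nucleus, where they would switch on genes of the fasted state. IGF binding proteins hold IGF1 in the extracellular space and can be cut by proteases that release it. Brown fat is among the most insulin-responsive tissues for glucose uptake, and it burns glucose and fat when sympathetic nerves activate it in the cold.

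Libraries held between 3846016 and 6047247 counts (median 4902083), so a single read was worth 0.151 to 0.285 CPM (read counts scaled to library size, with TMM factors). Mitochondrial genes took 33.6% to 46.2% of the counts. No pair of libraries of the same group agreed within sampling noise. Ucp1, the uncoupling protein that marks brown adipocytes, had a mean of 1900 CPM at RT and 5550 to 7840 CPM in the cold groups, and the summed epithelial markers (Krt8, Krt18 and Epcam) never passed 0.572 CPM. All 10 genes passed the filter on low counts in every comparison, with 16 to 972 reads per library. In whole tissue, fewer cells of a type and less RNA per cell cannot be told apart.

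After 6 hours of cold, 4 of the 10 genes were higher than at RT (Irs2, Igfbp3, Igfbp4 and Foxo1) and 2 were lower (Igfbp5 and Akt2), by edgeR's quasi-likelihood test with a Benjamini-Hochberg adjusted p below 0.05 over all genes. Among all 10593 genes tested there, 21.5% were higher and 21.0% lower. After 1 day only Igfbp3 was still higher, against 18.9% of all genes, and Irs1, Igf1 and Igfbp5 were lower, against 17.8%. After 2 days Igfbp3 and Insr were higher (16.4% of all genes) and the same 3 genes as after 1 day were lower (14.7%). After 3 days Igfbp3 and Igfbp4 were higher (18.3%), while Irs1 and Foxo1 were lower (15.5%). After 4 days the 3 higher genes were Igfbp3, Igfbp4 and Insr (19.4%), and the 4 lower ones Irs1, Foxo1, Igf1r and Akt2 (18.6%). Igfbp3 and Igfbp4 were still higher after 5 days (20.2%), and those 4 genes and Igfbp5 were lower (18.6%). Fold changes are given on the log2 scale (log2 change) with their standard error (SE). The median log2 change of the 10 genes went from 0.22 after 6 hours to -0.48 after 5 days, beside -0.03 and -0.02 over all genes. All 6 comparisons use the same 5 RT mice and are not independent.

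**Figure D1:**
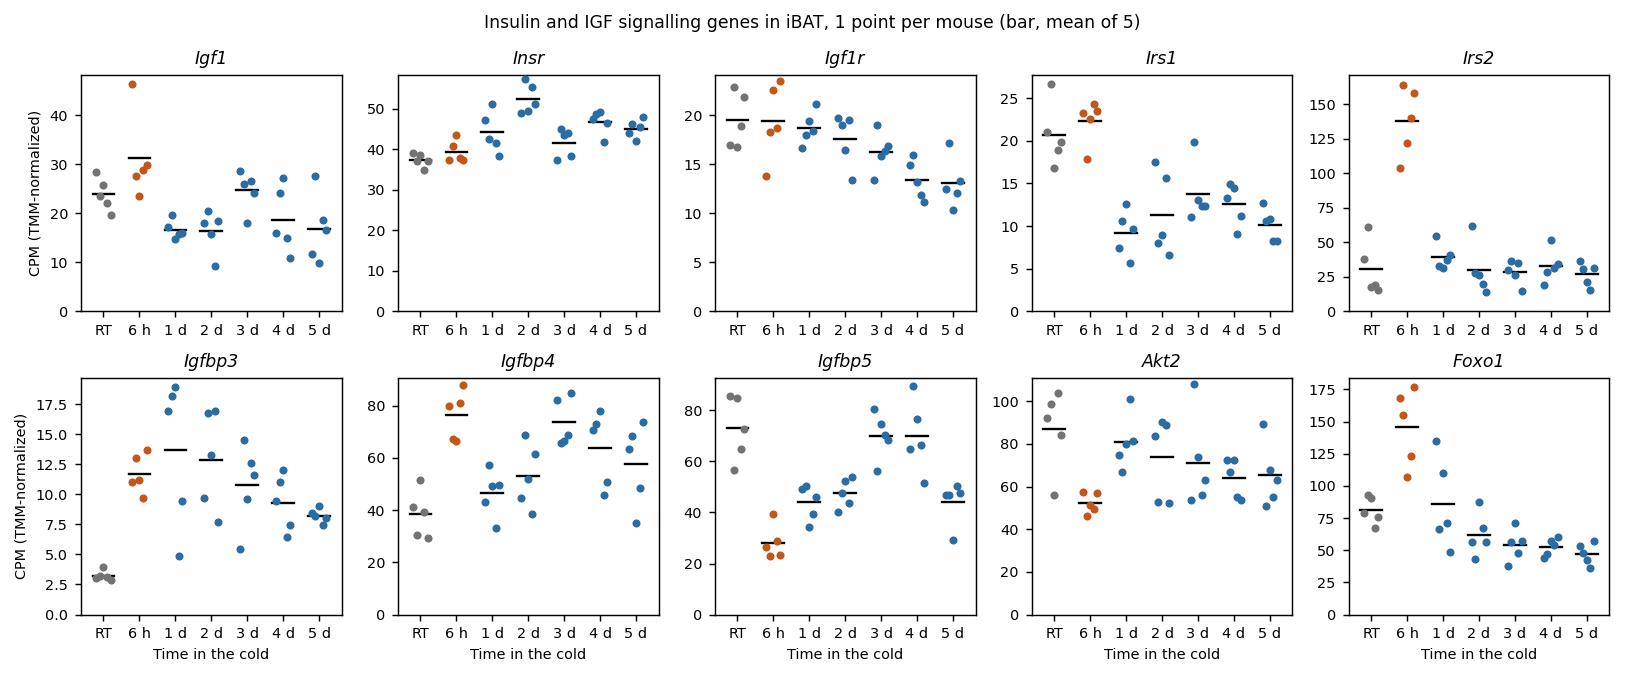
CPM of the 10 genes in each mouse (points; bars, mean of 5 mice) at RT and by time in the cold, each panel from 0. Irs2 stood at 104 CPM or more in every mouse after 6 hours and at 62 CPM or less in all others, and Igfbp3 was above every RT mouse in every cold-exposed mouse.

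Irs1 (chr1:82233101-82291416, minus strand) and Irs2 (chr8:10984681-11008458, minus strand, both in GRCm38) encode the main adaptors of insulin signalling in fat, and they moved differently in time. The bases before their start sites in RefSeq (GRCm38.p6) are shown because both hold an E-box, CACGTG, in capitals, a sequence bound by several basic helix-loop-helix factors. The palindrome lies from 115 bases before the start of Irs1 and from 44 bases before that of Irs2. Both are written 5′ to 3′ on the gene's strand, chr1:82291440-82291689 and chr8:11008930-11009179.
Irs1: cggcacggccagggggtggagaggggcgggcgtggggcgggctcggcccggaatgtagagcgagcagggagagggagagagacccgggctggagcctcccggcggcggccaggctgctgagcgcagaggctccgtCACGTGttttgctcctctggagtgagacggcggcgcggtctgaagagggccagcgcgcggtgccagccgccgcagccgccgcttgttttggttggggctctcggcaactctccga
Irs2: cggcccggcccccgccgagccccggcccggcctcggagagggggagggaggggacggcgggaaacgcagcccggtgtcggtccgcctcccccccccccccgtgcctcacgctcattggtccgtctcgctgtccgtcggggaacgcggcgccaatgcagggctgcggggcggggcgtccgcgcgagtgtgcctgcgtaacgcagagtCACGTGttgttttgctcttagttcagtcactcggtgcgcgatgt
The RefSeq starts lie 23 bases (Irs1) and 471 bases (Irs2) before those of the annotation that gave the gene positions. Of the 12 promoter windows of 300 bases (250 before to 50 after the start) found for 9 of the genes, these were the 2 with an E-box, while 7.15% of all 32851 mouse windows hold it. The FOXO core GTAAACA, the cAMP response element TGACGTCA and the glucocorticoid response motif TGTTCT, searched on both strands, were in 0 of the 12 windows and in 3.65%, 1.79% and 19.0% of all windows. These matches describe letters only. Insr had no window.

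Irs2 was induced within 6 hours and then returned to the RT range. The RT mice had 38.1, 61.2, 17.7, 19.2 and 15.4 CPM, and the mice after 6 hours 104, 164, 122, 140 and 158 CPM. Those groups did not overlap, and the rise was 4.45-fold (log2 change 2.15, SE 0.28, adjusted p in edgeR 9.97e-06). The means after 1, 2, 3, 4 and 5 days were 39.5, 30.1, 28.5, 33 and 27 CPM, none of them past the threshold. RT mouse 2 weighs on the later comparisons, since without it Irs2 after 1 day stood at a log2 change of 0.79 in place of 0.36 (adjusted p in edgeR 0.0162 in place of 0.376). After 5 days the 95% interval of the log2 change still ran from -0.81 to 0.42.

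Irs1 showed no detectable change after 6 hours and was lower at every later time. Its values were 21, 26.7, 16.8, 18.9 and 19.9 CPM at RT and 23.2, 17.9, 22.6, 24.3 and 23.5 CPM after 6 hours, a log2 change of 0.08 with a 95% interval from -0.19 to 0.35. After 1 day the mice had 7.42, 10.6, 12.6, 5.61 and 9.67 CPM, all below the lowest RT mouse (log2 change -1.18, SE 0.19, adjusted p in edgeR 1.61e-04). The decrease was smallest after 3 days, at 0.66 of the RT level, and after 5 days the 5 mice were again all below RT, at 12.7, 10.6, 10.8, 8.23 and 8.24 CPM (log2 change -1.06, adjusted p in edgeR 7.31e-05). After 2 and 3 days 1 mouse in each group, at 17.5 and 19.8 CPM, lay within the RT range. Irs1 shares 2822 exonic bases with the antisense gene Gm9747, which had 1 read in all libraries together against 2475 for Irs1. Irs2 and Foxo1 share 162 and 674 bases with antisense genes that had 16 and 0 reads. The strand setting of the counting is not given in the sources used here.

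Igf1 (chr10:87858265-87937042, plus strand), which stromal cells, macrophages and adipocytes can all make, was lower after 1 and 2 days. RT mice had 28.4, 23.6, 25.8, 22 and 19.6 CPM, against 17.1, 19.6, 14.7, 15.8 and 15.9 CPM after 1 day. The highest mouse after 1 day equalled the lowest RT mouse to the printed digits, and the log2 change was -0.54 (SE 0.13, adjusted p in edgeR 0.00367). After 2 days it was -0.55 (adjusted p in edgeR 0.0226), with 1 mouse at 9.24 CPM and 1 at 20.4 CPM, inside the RT range. That call was lost without RT mouse 1 (-0.49, adjusted p in edgeR 0.059) or without the mouse numbered 3 after 2 days (-0.53, adjusted p in edgeR 0.0514), and with all 7 groups in a single fit neither call held (adjusted p in edgeR 0.0571 and 0.0582). After 3 days the mean, 24.7 CPM, was near that at RT, and after 5 days mice spread from 9.91 to 27.6 CPM (log2 change -0.53, adjusted p in edgeR 0.051). The decrease after 5 days depended on the setting. It passed with DESeq2 (adjusted p 0.0482), and in edgeR with no filter on low counts (0.0122), library size scaling (0.00624) and a replicate block (0.0359). It also passed without RT mouse 5 or the mouse numbered 2 after 5 days. It missed the threshold with RLE factors, without mitochondrial genes and Gm42418, and with all 7 groups in a single fit. Markers of adipose stromal cells moved with Igf1 after 1 day, when 6 of the 8 were lower and none at 0. Their summed level ran from 366 to 486 CPM then and from 534 to 780 CPM at RT, and from 331 to 654 CPM after 2 days, when 1 of the 8 was lower. The summed macrophage markers ran from 53.6 to 122 CPM at RT, 53.2 to 106 CPM after 1 day and 65.2 to 491 CPM after 2 days. After 3, 4 and 5 days they ran from 111 to 542, 72.3 to 384 and 90 to 382 CPM. Of the macrophage markers tested, 1 of 6 was higher after 1 day and 3 of 6 after 2 days. After 3, 4 and 5 days 6, 4 and 4 of 8 were higher. None was lower at any of these times. The part of these cells in the Igf1 values was not tested.

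**Figure D2:**
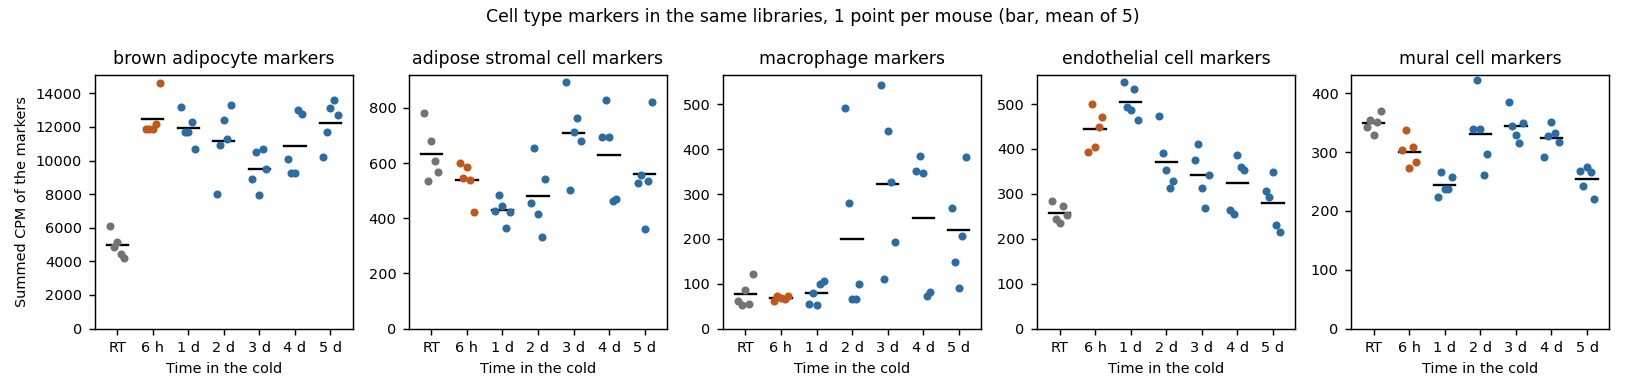
Summed CPM of marker genes of 5 cell types in each mouse (points; bars, mean of 5 mice) at RT and by time in the cold, each panel from 0. Stromal markers had their lowest median after 1 day (426 CPM, range 366 to 486 CPM), and endothelial markers their highest then (493 CPM, range 464 to 549 CPM). Macrophage markers spread from 111 to 542 CPM after 3 days.

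Of the receptors, Insr (chr8:3122061-3279617, minus strand) had 37.4 ± 1.65 CPM (SD, n = 5 mice) at RT and was highest after 2 days, at 52.4 ± 3.75 CPM. The 5 mice then had 48.9, 57.3, 49.5, 55.4 and 51.1 CPM, all above the RT mice, at 34.9 to 39.1 CPM (log2 change 0.47, SE 0.10, adjusted p in edgeR 0.00181). After 4 days the log2 change was 0.30 (adjusted p in edgeR 0.0174), and without RT mouse 4 it was 0.27 (adjusted p in edgeR 0.0505). Scaled by library size alone, which shifts the median of all genes to -0.24 and -0.15, the values after 2 and 4 days were 0.25 and 0.17 and neither passed. The mice after 5 days, at 42 to 47.9 CPM, also lay above all RT mice, but the change of 0.25 missed the threshold (adjusted p in edgeR 0.0518). It passed with all 7 groups in a single fit (adjusted p in edgeR 0.022) and without the mouse numbered 3 after 5 days (0.28, adjusted p in edgeR 0.0481), and the value of 0.23 after 1 day also passed in the single fit (adjusted p in edgeR 0.0436).

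Igf1r (chr7:67952827-68233668, plus strand) went the other way and later. Its mean was 19.5 ± 2.79 CPM at RT and 19.4 ± 3.86 CPM after 6 hours, and the group means then stood at 18.7, 17.6, 16.3, 13.5 and 13.1 CPM from 1 to 5 days. It passed the test after 4 days (log2 change -0.56, adjusted p in edgeR 0.00635) and 5 days (-0.60, SE 0.16, adjusted p in edgeR 0.00524). After 4 days all 5 mice, at 14.9, 16, 13.2, 11.9 and 11.2 CPM, lay below the lowest RT mouse at 16.8 CPM, while after 5 days 1 mouse at 17.2 CPM did not. No insulin gene (Ins1 or Ins2) nor Igf2 passed the filter on low counts in any comparison. Igf2r, a receptor that clears IGF2 and carries lysosomal enzymes, was lower after 6 hours (46.6 to 32.7 CPM, log2 change -0.54, adjusted p in edgeR 0.00285) and in 4 of the 6 comparisons.

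**Figure D3:**
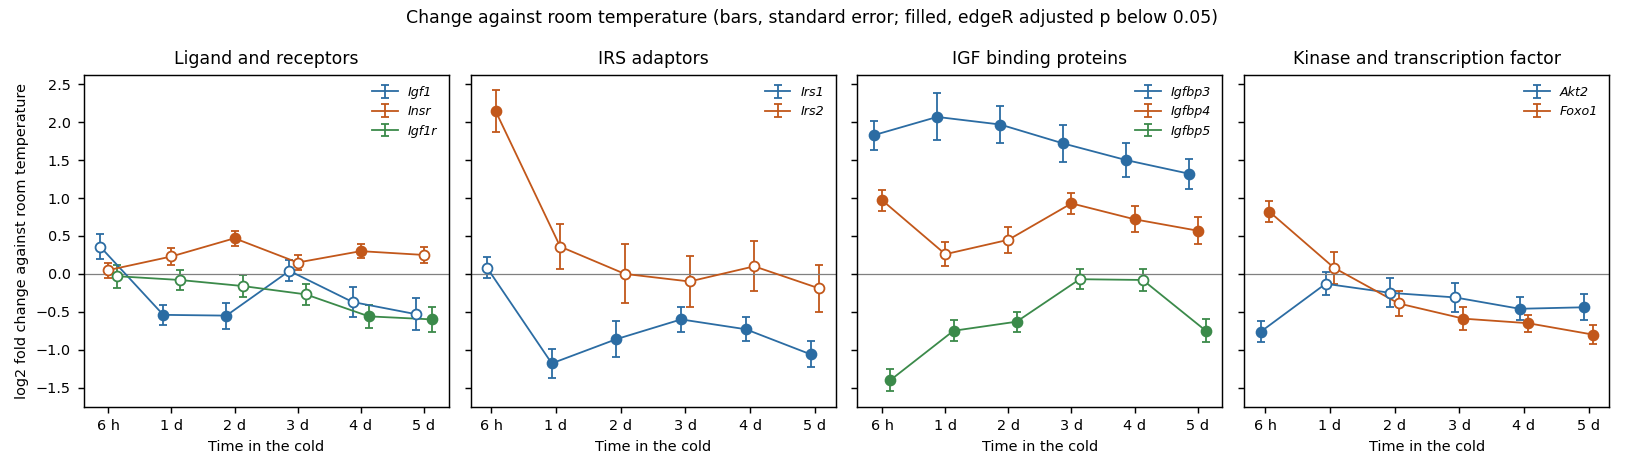
Log2 change against RT (y axis; bars, standard error) by time in the cold for the ligand and receptors, the IRS adaptors, the binding proteins, and Akt2 with Foxo1; filled points passed an edgeR adjusted p of 0.05. Irs2 and Foxo1 were highest after 6 hours (2.15 and 0.82), and Igfbp3 stayed between 1.32 and 2.07.

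The IGF binding proteins did not move as a group. Igfbp3 (chr11:7206086-7213923, minus strand), which carries most IGF in blood, was higher at all 6 times. RT mice had 3.05, 3.24, 3.93, 3.1 and 2.87 CPM, or 16 to 19 reads each, and mice after 6 hours had 11, 13, 11.2, 9.68 and 13.7 CPM. The log2 change was 1.83 after 6 hours (SE 0.19, adjusted p in edgeR 5.55e-07), 2.07 after 1 day and 1.32 after 5 days (SE 0.20, adjusted p in edgeR 5.94e-05). No cold-exposed mouse came down to the RT range, and the lowest, after 1 day, had 4.85 CPM, while 3 others of that group had 16.9 to 18.9 CPM. Summed endothelial markers were higher after 6 hours, at 394 to 499 CPM against 235 to 284 CPM at RT, with 2 of 6 markers higher, 1 lower and none at 0. From 1 to 4 days the sums ran from 464 to 549, 314 to 474, 269 to 412 and 254 to 387 CPM. Of the 5 markers tested at each of those times, 3, 3, 2 and 2 were higher and 0, 0, 0 and 1 lower. After 5 days the sums ran from 215 to 348 CPM, with 0 of 6 higher and 1 lower. The part of endothelial cells in the Igfbp3 values was not tested.

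Igfbp4 (chr11:99041244-99054392, plus strand), which restrains IGF1 until a protease cuts it, was higher after 6 hours and again after 3, 4 and 5 days. Mice at RT had 41.2, 30.5, 51.5, 39.1 and 29.5 CPM and mice after 6 hours 79.8, 67.1, 66.4, 81 and 87.8 CPM, a 1.96-fold rise without overlap (log2 change 0.97, SE 0.14, adjusted p in edgeR 2.50e-05). After 1 day it stood at 46.5 ± 8.96 CPM and was not past the threshold (adjusted p in edgeR 0.207), and after 3 days at 73.6 ± 9.16 CPM (log2 change 0.93, adjusted p in edgeR 1.07e-04). After 2 days the log2 change of 0.45 depended on the setting. It missed the threshold as fitted (adjusted p in edgeR 0.052) but passed with DESeq2 (adjusted p 0.0474), with all 7 groups in a single fit (0.0449), with no filter on low counts (0.00863), and without RT mouse 3 (0.57) or the mice numbered 1 or 4 after 2 days (0.51 and 0.55). The log2 changes were 0.72 after 4 days and 0.57 after 5 days, when mice spread from 34.9 to 73.8 CPM. The latter call was lost without the mouse numbered 5 (0.47, adjusted p in edgeR 0.0537) and with library size scaling (0.36, adjusted p in edgeR 0.151).

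Igfbp5 (chr1:72857932-72874884, minus strand), an IGF binding protein that also binds extracellular matrix, fell. RT mice had 85.6, 56.6, 84.9, 64.7 and 72.9 CPM, and after 6 hours 26.6, 23, 39.3, 28.8 and 23.3 CPM, with no overlap (log2 change -1.40, SE 0.15, adjusted p in edgeR 9.08e-07). It remained lower after 1 and 2 days (-0.75 and -0.63), and after 3 and 4 days the means of 70 and 69.8 CPM were within the RT spread. After 5 days it was lower again, at 46.9, 46.8, 29.1, 50.3 and 47.7 CPM (log2 change -0.75, adjusted p in edgeR 5.54e-04). Summed mural cell markers ran from 330 to 370 CPM at RT. They ran from 273 to 338 CPM after 6 hours, 223 to 267 CPM after 1 day and 261 to 422 CPM after 2 days. After 3, 4 and 5 days the sums ran from 316 to 386, 292 to 352 and 220 to 275 CPM. Of the 5 markers, 2, 3 and 2 were higher and 1, 1 and 0 lower after 6 hours, 1 day and 2 days. After 3, 4 and 5 days 1, 0 and 0 were higher and 0, 0 and 3 lower. None of the markers was at 0 after 1 or 5 days. Their part in the Igfbp5 values was not tested.

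Foxo1 (chr3:52268336-52353221, plus strand), the transcription factor that AKT excludes from the nucleus, rose and then fell below RT. RT mice had 78.9, 93, 90.2, 67.3 and 75.6 CPM, and after 6 hours the values were 168, 155, 107, 123 and 177 CPM (log2 change 0.82, SE 0.14, adjusted p in edgeR 1.06e-04). The groups did not overlap. Mice after 1 day spread widely, from 48.6 to 135 CPM, and the mean of 86.3 CPM was not distinguishable from RT. After 2 days the log2 change of -0.39 missed the threshold (adjusted p in edgeR 0.0726). It passed with library size scaling (-0.63, adjusted p in edgeR 0.00492) and with no filter on low counts (-0.38, adjusted p in edgeR 0.0381). Leaving out the mouse numbered 3 after 2 days also made it pass (-0.54). Foxo1 was lower after 3, 4 and 5 days, by -0.59, -0.65 and -0.80 on the log2 scale (adjusted p in edgeR 0.00507, 3.07e-04 and 8.26e-05), and after 5 days the mice had 53.2, 47.9, 42, 36.4 and 56.9 CPM, all below RT. Cell type markers moved at these times and also earlier. Irs1 was lower at these times too, and Igf1r from 4 days. Summed adipocyte markers (7 genes, none at 0) ran from 9710 to 12700 CPM at RT, 7340 to 9820 CPM after 3 days, 7710 to 8590 CPM after 4 days and 8740 to 9470 CPM after 5 days, with 3, 4 and 3 of 7 lower and 0, 0 and 1 higher. Brown adipocyte markers (6 genes) went the other way, with sums of 4190 to 6130 CPM at RT. After 3, 4 and 5 days the sums ran from 7930 to 10700, 9250 to 13000 and 10200 to 13600 CPM. At each of these times 5 of the 6 were higher and 0 lower. Of 8 macrophage markers tested, 6, 4 and 4 were higher and none lower, with sums of 111 to 542, 72.3 to 384 and 90 to 382 CPM against 53.6 to 122 CPM at RT; Trem2, which did not pass the filter, was at 0 in some mice. Earlier, after 6 hours, 1 day and 2 days, 3, 2 and 3 of the 7 adipocyte markers were lower and 0 higher. Of the 6 brown adipocyte markers, 4 were higher at each of those earlier times, and 0, 1 and 0 lower. Foxo1 was then higher or not past the threshold. Of 6 macrophage markers tested at those times, 0, 1 and 3 were higher and 1, 0 and 0 lower. The part of these cells in the values of Foxo1, Irs1 and Igf1r was not tested.

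Akt2 (chr7:27591552-27640826, plus strand), the AKT form that drives insulin-stimulated glucose uptake, was lower after 6 hours. RT mice had 92.1, 98.9, 55.9, 104 and 84.1 CPM and mice after 6 hours 57.6, 46.2, 51.2, 49.6 and 57 CPM (log2 change -0.76, SE 0.14, adjusted p in edgeR 3.10e-04). The RT mouse at 55.9 CPM overlapped 2 of them. After 1, 2 and 3 days Akt2 was not past the threshold, with means of 80.8, 73.7 and 70.9 CPM. The calls after 4 days (-0.46, adjusted p in edgeR 0.0226) and 5 days (-0.44, adjusted p in edgeR 0.0412) were weak. The call after 4 days was lost without RT mouse 2 or 4 or the mice numbered 4 or 5 after 4 days (-0.41, -0.39, -0.40 and -0.39). That after 5 days was lost in 8 of 10 fits that left out 1 mouse (-0.36 to -0.45), those without RT mice 1, 2, 4 or 5 or the mice numbered 2, 3, 4 or 5 after 5 days, and with all 7 groups in a single fit (adjusted p in edgeR 0.0533). Skeletal muscle markers varied between mice, with sums of 61.4 to 815 CPM at RT and 2.73 to 519 CPM after 6 hours. After 4 and 5 days the sums ran from 159 to 731 and 129 to 235 CPM. Of the 6 markers, 0 passed the threshold after 6 hours and after 4 days. After 5 days 3 of the 6 were lower and 0 higher. The part of muscle in the Akt2 values was not tested.

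Early and late cold were also compared directly, 5 days against 6 hours. Of the 10 genes, 6 were lower after 5 days (Irs2, Foxo1, Irs1, Igf1, Igf1r and Igfbp3) and Igfbp5 was higher, beside 16.9% and 19.0% of all 10294 genes tested. Irs2 went from 138 ± 25 to 27 ± 8.37 CPM (log2 change -2.35, SE 0.18, adjusted p in edgeR 3.53e-09), and Foxo1 from 146 ± 29.8 to 47.3 ± 8.26 CPM (-1.62, SE 0.15, adjusted p in edgeR 4.00e-08). Both fell without overlap between the groups. Irs1 fell from 22.3 to 10.1 CPM (-1.14) and Igf1 from 31.2 to 16.8 CPM (-0.88, adjusted p in edgeR 0.00373). Igf1r was lower by a log2 change of -0.57 and Igfbp3 by -0.51. The call of Igfbp3 (adjusted p in edgeR 0.029) was lost without the mouse numbered 2 or 5 after 6 hours or the mouse numbered 4 after 5 days (-0.47, -0.44 and -0.47), without the filter on low counts and with all 7 groups in a single fit.

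Around these genes, the pathway was described with lists written from general knowledge, with earlier results of these data known. Of the 15 adaptor and PI3-kinase genes tested after 6 hours, 2 were higher and 4 lower, where 21.5% and 21.0% of all genes were, with a median log2 change of 0.08. Pik3r1, the main regulatory subunit of PI3-kinase, fell from 184 to 62.9 CPM after 6 hours (log2 change -1.59, SE 0.16, adjusted p in edgeR 4.31e-07) and was lower at all 6 times, with 55 CPM after 5 days. Sh2b1, an adaptor that enhances insulin receptor signalling, was lower from 2 days on, and Sh2b2 was higher after 1, 4 and 5 days. Sos1, the exchange factor that links receptors to RAS, was higher after 6 hours and 1 day (0.36 and 0.37).

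Among binding proteins and their proteases, Adam12, a metalloprotease able to cut IGFBP3 and IGFBP5, rose from 15.2 to 84.5 CPM after 6 hours (log2 change 2.45, SE 0.16, adjusted p in edgeR 3.47e-09) and was 3.72-fold above RT after 5 days. Of the 9 genes of that list tested after 6 hours, Igfbp3, Igfbp4 and Igfbp5 among them, 4 were higher and 2 lower, beside 21.5% and 21.0% of all genes. Igfbp7 was higher after 3, 4 and 5 days, from a mean of 27.5 CPM at RT to 51.6 CPM after 5 days (log2 change 0.89, adjusted p in edgeR 0.0123). The mice after 5 days had 23.3, 69.3, 27.6, 61.5 and 76.2 CPM, so that 2 of them lay within the RT range of 19.7 to 35.4 CPM.

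In the AKT, mTOR and FOXO arm, 7 of 25 genes tested were higher and 5 lower after 6 hours, and 8 higher and 5 lower after 5 days (all genes, 21.5% and 21.0% after 6 hours, 20.2% and 18.6% after 5 days). Pdpk1, the kinase that activates AKT, was higher at all 6 times, going from 74.9 to 160 CPM after 6 hours (log2 change 1.07, adjusted p in edgeR 5.21e-07). Mtor, the kinase at the centre of growth control, rose from 34 CPM to 67.5 CPM after 1 day and 93.6 CPM after 5 days (1.44, SE 0.13, adjusted p in edgeR 1.33e-07). Eif4ebp1, which blocks translation until mTOR phosphorylates it, fell from 112 to 38.6 CPM after 6 hours (-1.57, adjusted p in edgeR 8.68e-08) and was still lower after 5 days, at 85.5 CPM. Gsk3a, a kinase that AKT inhibits, was higher at every time, by 0.42 to 0.82 on the log2 scale.

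Of 12 negative regulators tested after 6 hours, 3 were higher and 3 lower, shares near those of all genes (21.5% and 21.0%). Socs2, a brake on growth hormone signalling upstream of IGF1, rose from 16.9 to 75.2 CPM after 6 hours (log2 change 2.12, adjusted p in edgeR 8.53e-07) and was below RT after 5 days, at 10.5 CPM (-0.72, adjusted p in edgeR 0.0192). Ptpn1, a phosphatase that removes phosphate from the insulin receptor, was higher at all 6 times, by 0.37 to 0.64. Grb14, an inhibitor of the receptor kinase, was lower after 6 hours (-0.57) and higher after 3 and 4 days (0.58 and 0.54). Inppl1, a lipid phosphatase, was lower after 6 hours, 2 days and 3 days.

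The FOXO target list and the list of insulin-induced genes hold genes that can respond to the end of the pathway. Insulin, AKT activity and the location of FOXO proteins were not measured here. Of 14 FOXO targets tested after 6 hours, Irs2 among them, 3 were higher and 7 lower, and after 5 days 4 of 15 were higher and 3 lower. Over all genes the shares were 21.5% higher and 21.0% lower after 6 hours, and 20.2% and 18.6% after 5 days. Cdkn1b, a cell cycle inhibitor, was lower at all 6 times (-0.92 after 6 hours), Sod2 was higher at all 6, and Ccng2 rose to 28.2 CPM after 5 days from 9.58 CPM at RT. Pdk4, which shuts pyruvate out of oxidation, was 2.68-fold higher after 2 days (adjusted p in edgeR 1.70e-04). Of 8 insulin-induced genes tested after 6 hours, 6 were lower (Srebf1, Acly, Acaca, Fasn, Scd1 and Pnpla3, all of lipid metabolism) and 2 higher (Hk2 and Slc2a4, of glucose use). The median log2 change of the 8 was -1.19 beside -0.03 over all genes. After 5 days 5 of the 8 were higher and 2 lower, with a median of 0.64 beside -0.02 over all genes. Acly, which makes acetyl-CoA for lipid synthesis, fell from 306 to 96.5 CPM after 6 hours and stood at 1330 CPM after 5 days (log2 change 2.11 against RT, adjusted p in edgeR 2.09e-04), whereas Scd1, a fatty acid desaturase, was lower from 6 hours to 4 days and at 3920 CPM after 5 days, beside 3590 CPM at RT. Hk2, a hexokinase, was higher at all 6 times, from 208 CPM at RT to 616 CPM after 6 hours, and Slc2a4, the insulin-responsive glucose transporter, rose from 110 to 251 CPM after 1 day (1.17, adjusted p in edgeR 5.02e-05).

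**Figure D4:**
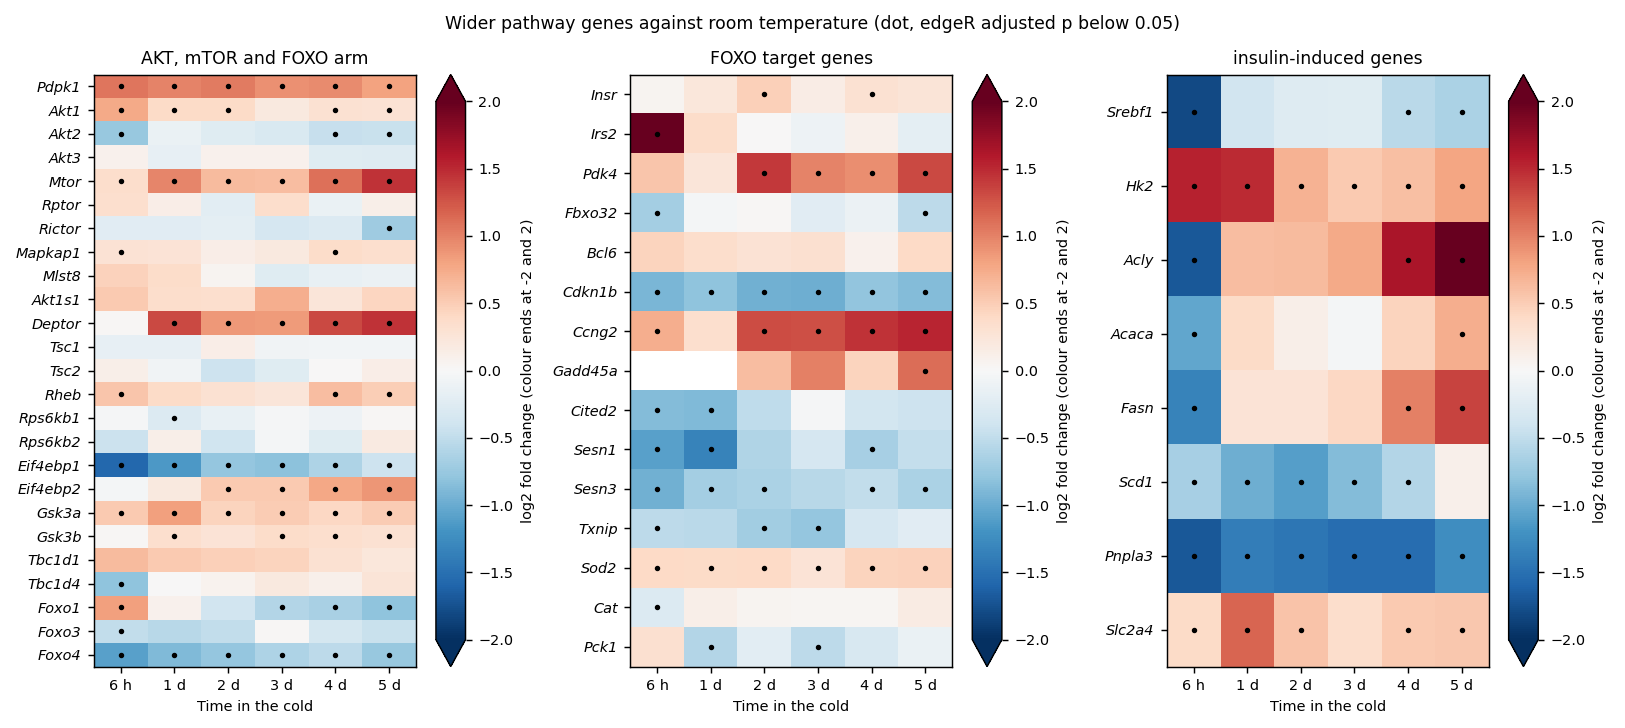
Log2 change against RT (colour, ending at -2 and 2) of the wider pathway genes (rows) by time in the cold (columns); a dot marks an edgeR adjusted p below 0.05, and blank cells were not tested. Acly and Fasn went from lower after 6 hours (-1.69 and -1.34) to higher after 5 days (2.11 and 1.35).

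The genes with the most similar course were found among 6162 genes over the 35 libraries, by the root mean square difference of log2 CPM less each gene's mean. Irs1 was followed most closely by Prps1, at 0.331 beside an SD of 0.559 for Irs1 itself, Foxo1 by Fam126b (0.327; own SD 0.6) and Igfbp3 by Mob1b (0.406; own SD 0.709). For Igf1 the nearest gene, Trmt1l, was at 0.369 with an own SD of 0.486, and for Insr, Emc10 at 0.149 with an own SD of 0.177.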

How the data were processed

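RNA of iBAT from 35 mice was sequenced with the QuantSeq 3' FWD kit. The authors deposited raw counts per gene, made with STAR 2.6.1d and HTSeq 0.11.2 on GRCm38, as a table of whole numbers without normalization. Each of the columns was matched to a mouse by its label, and 267 identifiers had no gene symbol.

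From these counts, each cold group was compared with RT, and 5 days with 6 hours, in separate fits with edgeR 4.0.16 in R 4.3.3 by its quasi-likelihood test after TMM and filterByExpr, with p-values adjusted by Benjamini-Hochberg over all genes tested and called below 0.05. The SE was the absolute log2 change divided by the square root of the test's F statistic. The 95% intervals used normal quantiles, so with 5 mice per group they are narrower than the test itself would give. CPM used TMM factors over all libraries, and log2 CPM a prior count of 2. The tests were tested on simulated data. Gene positions came from GENCODE M21 and promoters from RefSeq. The alternatives were DESeq2 1.42.0, RLE factors, library size only, no filter, leaving out mitochondrial genes and Gm42418, all 7 groups in a single fit, fits without each mouse in turn and a replicate block. The members and lists were chosen with earlier results of these data known. All members were named, and from each wider list up to 4 genes with a mean of at least 50 counts called in the most comparisons; the other list genes printed were named after their values were seen. The genes most similar in course to Irs2 are not reported here. The single-cell data were not analysed here.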

Additional observations from a re-analysis of the deposited data

Results flagged for a closer look

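Among 70 groups of 5 mice (10 genes in 7 groups), 5 held a mouse that stood apart from the other 4, where chance gives about 1 in 20 groups. Irs1 was 17.9 CPM in mouse 2 after 6 hours, below the next at 22.6 CPM, and 19.8 CPM in mouse 2 after 3 days, above the next at 13 CPM. Irs2 was 62.0 CPM in mouse 1 after 2 days, where the next had 27.8 CPM. Igf1 was 46.4 CPM in mouse 1 after 6 hours, above the next at 29.9 CPM. Igfbp5 was 29.1 CPM in mouse 3 after 5 days, below the next at 46.8 CPM.

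The effect of cold differed between 6 hours and 5 days for 7 genes in the direct test, edgeR's quasi-likelihood test of 5 days against 6 hours. The log2 difference was -2.35 for Irs2, -1.62 for Foxo1, -1.14 for Irs1, -0.88 for Igf1, -0.57 for Igf1r, -0.51 for Igfbp3 and 0.65 for Igfbp5.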

How the results depend on the processing

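The counts of genes called, among the 10 and over all genes, stayed within 1.5 times the reported count in every alternative. Fits that each left out 1 mouse called 6 to 7 of the 10 genes after 6 hours, 4 to 5 after 1 day, 4 to 6 after 2 days, 4 to 5 after 3 days, 5 to 8 after 4 days, 5 to 7 after 5 days and 6 to 9 for 5 days against 6 hours. Over all genes they called 3971 to 4357, 3404 to 3906, 2739 to 3385, 3071 to 3551, 3608 to 4094, 3584 to 4145 and 3236 to 3618. Library size scaling without TMM moved the median of all genes to as low as -0.25, after 5 days, in place of -0.02. It moved the split after 6 hours from 2280 higher and 2225 lower to 1342 and 3399 (28.3% higher in place of 50.6%). It reversed the sign of values that were not called: Insr and Irs1 after 6 hours (-0.14 and -0.11), Foxo1 after 1 day (-0.13), Irs2 after 2 and 4 days (-0.16 and -0.03) and Igf1 after 3 days (-0.10). It added calls of lower levels for Foxo1 after 2 days (-0.63), Igf1r after 3 days (-0.41) and Igf1 after 5 days (-0.76). DESeq2 reversed Irs2 after 2 days (-0.02). The cause was not tested. Replicate numbers did not pair mice: over 105 same-numbered pairs the mean correlation of deviations was -0.0109, beside 0.00266 for other pairs, and 5 of 35 libraries correlated best with their own number. A replicate block gave 4490, 3609, 2857, 3288, 3747, 4027 and 3610 calls over all genes; it reversed Foxo1 after 1 day (-0.01) and Irs2 after 3 days (0.02), and added Igf1 after 5 days (-0.57) and, for 5 days against 6 hours, Igfbp4 (-0.43) and Akt2 (0.30). Leaving out 1 mouse turned the sign of uncalled values that lay near 0: Igf1r after 6 hours (-0.11 to 0.08), Foxo1 after 1 day (-0.13 to 0.24), Irs2 after 2, 3, 4 and 5 days (-0.46 to 0.42, -0.27 to 0.33, -0.13 to 0.52 and -0.36 to 0.23), Igf1 after 3 days (-0.03 to 0.13) and Igfbp5 after 3 and 4 days (-0.15 to 0.01 and -0.17 to 0.02). It added calls in 17 fits, among them Igf1 after 5 days without mouse 2 (-0.76), Foxo1 after 2 days without mouse 3 (-0.54) and Akt2 after 3 days without mouse 2 (-0.50), and lost them in 19, for Igf1, Insr, Igfbp3, Igfbp4 and Akt2 as given above. Irs1, Irs2, Foxo1, Igf1r and Igfbp5 lost no call in any fit. Igfbp3 rests on 16 to 19 reads in each RT mouse, which limits the precision of its fold.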
